A study of Oryza sativa with 9 samples.

Results

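The WRKY transcription factors described here are 47 rice genes out of 34119 genes in the deposited table. They were chosen by locus number from a list of the family, with earlier results of these data known. All 47 were in the table, and 41 of them could be tested, which took 1 FPKM (fragments per kilobase of gene, scaled to library size) or more in 3 or more of the 6 libraries. Seedlings of 2 genotypes were compared: 708OE_PEG, the overexpression line SDG708-YFP-1, which carries the SET-domain protein SDG708 fused to a yellow fluorescent protein, and NIP_PEG, the wild type. Both were 14 days old, and both had stood for 3 h in 20% PEG8000, a polymer that draws water out of roots. Each genotype had 3 libraries, and each wild-type repeat had been run on 2 lanes and was 1 library here. No untreated plants were analysed here, so the values describe a difference between genotypes under PEG and not a response to PEG. The overexpression line is 1 transgenic line, and the sources used here do not name the promoter of its transgene.

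WRKY factors are plant regulators named for a conserved peptide in their DNA-binding domain, which recognises the W-box of target promoters, including the promoters of WRKY genes themselves. Group I members carry a pair of WRKY domains, whereas groups II and III carry a single one and differ in their zinc finger. In rice the family is best known from defence against blast and bacterial blight, where OsWRKY45 acts in salicylic acid signalling and OsWRKY62, OsWRKY76 and OsWRKY28 are known as repressors. Others have been linked to abscisic acid, gibberellin and brassinosteroid signalling, phosphate supply and leaf senescence.

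Whole reads recovered from the FPKM values summed to 13102787, 13441830 and 17448726 in the 708OE_PEG libraries and to 18453548, 25899523 and 21262509 in the NIP_PEG libraries. These sums were 0.962 to 0.988 times the library size implied by the FPKM values in 708OE_PEG and 1.04 to 1.06 times in NIP_PEG. This offset follows genotype, so small fold changes depend on which size is used for scaling. Levels of different genes are per kilobase of whole gene, introns included where this could be compared, so an order of levels between genes depends on their introns. The row of SDG708 itself was not analysed here. The adjacent locus number, LOC_Os04g34976, had 147 to 154 FPKM in 708OE_PEG and 4.66 to 5.91 FPKM in NIP_PEG, and no table used here gives that locus the name SDG708. Whole seedlings hold shoots and roots, but of the 3 root markers Lsi2 and RCc3 averaged 0 FPKM in 708OE_PEG and 0 and 0.0557 FPKM in NIP_PEG. The third, Lsi1, averaged 2.50 ± 0.140 FPKM in 708OE_PEG and 2.83 ± 0.440 FPKM in NIP_PEG (SD, n = 3 each) and did not pass (limma adjusted p = 0.35). All 6 shoot markers (both RbcS genes, RCA, CAB1R, CAB2R and PsbO) rose (limma adjusted p below 0.05), where 14.3% of all tested genes rose. Their summed level was 12550 to 12998 FPKM in 708OE_PEG and 6577 to 8330 FPKM in NIP_PEG. The summed level of the root markers, nearly all of it Lsi1, was 2.39 to 2.66 FPKM in 708OE_PEG and 2.39 to 3.31 FPKM in NIP_PEG. PCNA, a marker of dividing cells, averaged 2.92 ± 0.183 FPKM in 708OE_PEG and 1.95 ± 0.231 FPKM in NIP_PEG (SD, n = 3 each; limma adjusted p = 0.0091). The part of these differences in the WRKY values was not tested, and in whole seedlings fewer cells of a type and less RNA per cell cannot be told apart.

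Under PEG the family split between the genotypes. Of the 41 tested members 14 were higher in 708OE_PEG, 12 were lower and 15 did not pass (limma on log2(FPKM + 1), Benjamini-Hochberg adjusted p below 0.05 over 18569 genes). Of the tested WRKY members 34.1% were higher and 29.3% lower, against 14.3% and 20.0% of all tested genes, of which 34.3% were called in all. The members were chosen with earlier results of these data known, so their shares are a description. A rise of at least 2-fold on the log2(FPKM + 1) scale was called for 6 members, OsWRKY77, OsWRKY62, OsWRKY45, OsWRKY14, OsWRKY28 and OsWRKY76, against 1.60% of all tested genes. A fall of that size was called for 0 members, against 0.334% of all genes. The median log2 fold change (log2FC, 708OE_PEG over NIP_PEG on the log2(FPKM + 1) scale) was 0.02 over the tested members and -0.04 over all tested genes. The 3 overexpression libraries lay wholly above the 3 wild-type libraries for 15 members (20.0% of all genes did so) and wholly below them for 14 (30.7% of all genes). An exact permutation test of a single gene cannot go below p = 0.1 with 3 libraries against 3, so calls rest on the variance shared across genes. The balance of calls over all genes moved with scaling, from 2654 higher and 3706 lower as deposited to 3696 higher and 2060 lower after scaling to recovered reads, while the members then counted 15 higher and 10 lower.

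**Figure D1:**
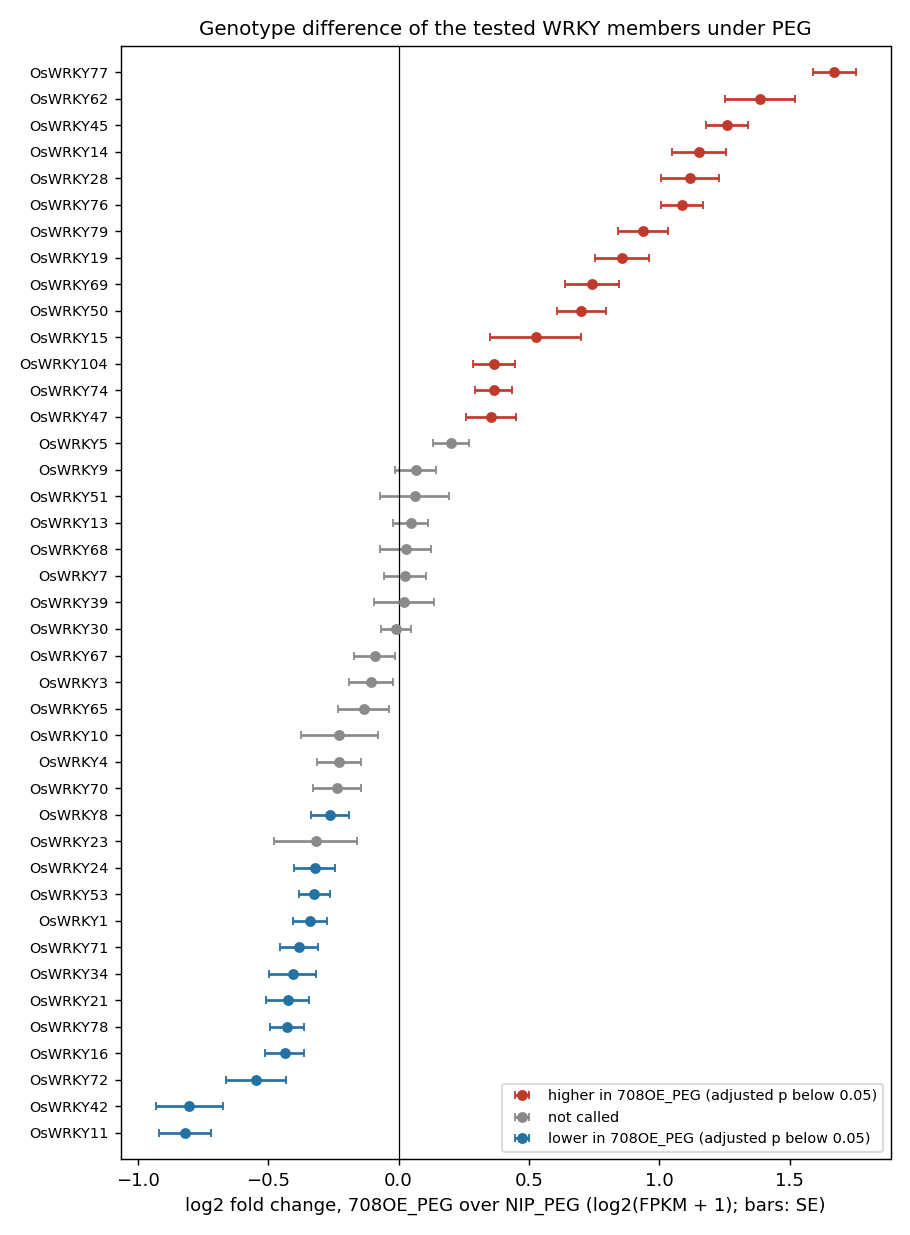
Log2 fold change of each of the 41 tested members, 708OE_PEG over NIP_PEG, on the log2(FPKM + 1) scale with bars of 1 SE; red points were called higher, blue points lower and grey points were not called. Rises ran up to 1.67 (OsWRKY77) and falls to -0.82 (OsWRKY11).

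OsWRKY45 (LOC_Os05g25770), the central activator of the salicylic acid branch of rice defence, had the highest level in 708OE_PEG of the members that rose. It had 20.6, 22.5 and 25.0 FPKM in 708OE_PEG, against 8.94, 8.56 and 9.08 FPKM in NIP_PEG. The genotypes stood far apart, and the wild-type libraries differed among themselves by less than 1 FPKM. The ratio of the means was 2.56, and the log2FC was 1.26 (SE 0.08, limma adjusted p = 3.2e-05). OsWRKY45 belongs to group III, to which 8 members were assigned here from background knowledge and with their values known, so subgroup counts are descriptions. The assignment may miss members, and WRKY loci outside the list were not sorted, so the count may not cover the whole group. Among the 22 tested members placed in no group or subgroup here 5 rose and 8 fell, so the count rests on the assignment. Of the 7 assigned members that were tested, 6 rose, 0 fell and 1 did not pass. Over all tested genes 14.3% rose and 20.0% fell. The 6 were OsWRKY45, OsWRKY19, OsWRKY69, OsWRKY74, OsWRKY15 and OsWRKY50, the last of which passed the filter through 708OE_PEG alone. OsWRKY19 had 2.69, 2.68 and 2.93 FPKM in 708OE_PEG and 1.10, 1.34 and 0.833 FPKM in NIP_PEG, without overlap (log2FC 0.86, limma adjusted p = 0.00078). OsWRKY69 had 5.68, 6.18 and 7.78 FPKM in 708OE_PEG and 3.33, 3.51 and 3.61 FPKM in NIP_PEG (log2FC 0.74, limma adjusted p = 0.0017), with overexpression replicate 3 the highest library. OsWRKY74, known from phosphate starvation and named here after its values were seen, had the smallest rise of the group, with 13.9 ± 0.716 FPKM in 708OE_PEG and 10.6 ± 0.607 FPKM in NIP_PEG (SD, n = 3 each; log2FC 0.36, limma adjusted p = 0.0063).

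The rise of OsWRKY15, also of group III, leaned on 1 library. It had 1.88, 2.05 and 3.77 FPKM in 708OE_PEG, against 1.33, 1.47 and 1.44 FPKM in NIP_PEG. Overexpression replicate 3 held 71 reads of the gene and replicates 1 and 2 held 26 and 29. The log2FC was 0.53 (limma adjusted p = 0.0496), and without 708OE_PEG replicate 3 it was 0.30 (adjusted p = 0.061). The call was also lost without 708OE_PEG replicate 2 (0.063) and without NIP_PEG replicate 1 (0.088), 2 (0.071) or 3 (0.11), after quantile normalization (0.074) and with the gene length trend removed (0.099).

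Several group III genes lie in a block near the ends of chromosomes 11 and 12, which are recent copies of each other, so reads may be split between near-identical members and single values there are uncertain. OsWRKY50 (LOC_Os11g02540), on chromosome 11, had 1.51, 1.53 and 1.24 FPKM in 708OE_PEG and 0.531, 0.564 and 0.381 FPKM in NIP_PEG (log2FC 0.70, limma adjusted p = 0.0014). Its neighbour by locus number, OsWRKY104 (LOC_Os11g02520), which was not counted in group III here, had 3.19, 3.38 and 3.63 FPKM in 708OE_PEG and 2.20, 2.54 and 2.51 FPKM in NIP_PEG (log2FC 0.37, limma adjusted p = 0.0105). Both of these chromosome 11 members rose without overlap between the genotypes. Some WRKY loci of the block outside the list fell without overlap. LOC_Os11g02480 averaged 4.79 FPKM in 708OE_PEG and 8.47 FPKM in NIP_PEG (log2FC -0.71, limma adjusted p = 0.00036). LOC_Os12g02420 averaged 4.49 FPKM in 708OE_PEG and 6.99 FPKM in NIP_PEG (log2FC -0.53, limma adjusted p = 0.0058). Other WRKY loci outside the list that are numbered close to these were not tested. LOC_Os12g01180, with a lower number on chromosome 12, was tested and did not pass (log2FC -0.17, limma adjusted p = 0.36), with overlap between the genotypes. On chromosome 12, OsWRKY65 averaged 2.53 ± 0.141 FPKM in 708OE_PEG and 2.88 ± 0.443 FPKM in NIP_PEG (SD, n = 3 each) and did not pass (log2FC -0.13, limma adjusted p = 0.31). OsWRKY64 had 1, 1 and 4 reads in the 708OE_PEG libraries and 0 in each NIP_PEG library, too few for a test.

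Subgroup IIa has 4 members here, of which 3 rose and 1 fell, where 14.3% of all tested genes rose and 20.0% fell. OsWRKY62 (LOC_Os09g25070) and OsWRKY76 (LOC_Os09g25060), repressors of defence genes when overexpressed, are next to each other on chromosome 9 with 0 annotated genes between them in the RefSeq assembly ASM3414082v1. OsWRKY62 had 4.43, 4.19 and 4.12 FPKM in 708OE_PEG, against 0.690, 0.925 and 1.48 FPKM in NIP_PEG. OsWRKY76 had 7.60, 6.85 and 8.11 FPKM in 708OE_PEG, against 3.20, 2.89 and 2.92 FPKM in NIP_PEG. The genotypes did not overlap for either gene of the pair, and the ratio of means was 4.11 for OsWRKY62 and 2.50 for OsWRKY76. The log2FC values were 1.39 for OsWRKY62 (SE 0.13, limma adjusted p = 0.00029) and 1.09 for OsWRKY76 (SE 0.08, limma adjusted p = 7.3e-05). OsWRKY62 rested on 25, 48 and 62 reads in the wild-type libraries, and its call held under each of the alternatives that tested it. OsWRKY28 (LOC_Os06g44010) had 4.14, 4.66 and 3.59 FPKM in 708OE_PEG and 1.10, 1.40 and 1.60 FPKM in NIP_PEG (log2FC 1.12, limma adjusted p = 0.00032).

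OsWRKY71, the IIa member also known as a gibberellin-signalling repressor in the seed, was by far the most abundant of the subgroup and moved the other way. It had 62.2, 61.4 and 58.0 FPKM in 708OE_PEG, against 86.5, 75.6 and 75.9 FPKM in NIP_PEG (log2FC -0.38, SE 0.07, limma adjusted p = 0.0062). Every overexpression library was below every wild-type library. After scaling to recovered reads the log2FC of OsWRKY71 was -0.27 (limma adjusted p = 0.019). OsWRKY71 made up 78.6 to 79.6% of the summed IIa FPKM in 708OE_PEG and 92.7 to 94.5% in NIP_PEG. The sum of OsWRKY62, OsWRKY76 and OsWRKY28 was 15.7 to 16.2 FPKM in 708OE_PEG and 4.99 to 5.999 FPKM in NIP_PEG. The sum over all 4 was 73.8 to 78.4 FPKM in 708OE_PEG and 80.8 to 91.5 FPKM in NIP_PEG, so as deposited the subgroup total was lower in every overexpression library. After scaling to recovered reads, a comparison of sums added after seeing the data, they were 78.0 to 80.9 FPKM in 708OE_PEG and 78.4 to 87.5 FPKM in NIP_PEG and overlapped, while the shares within the subgroup do not depend on scaling.

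**Figure D2:**
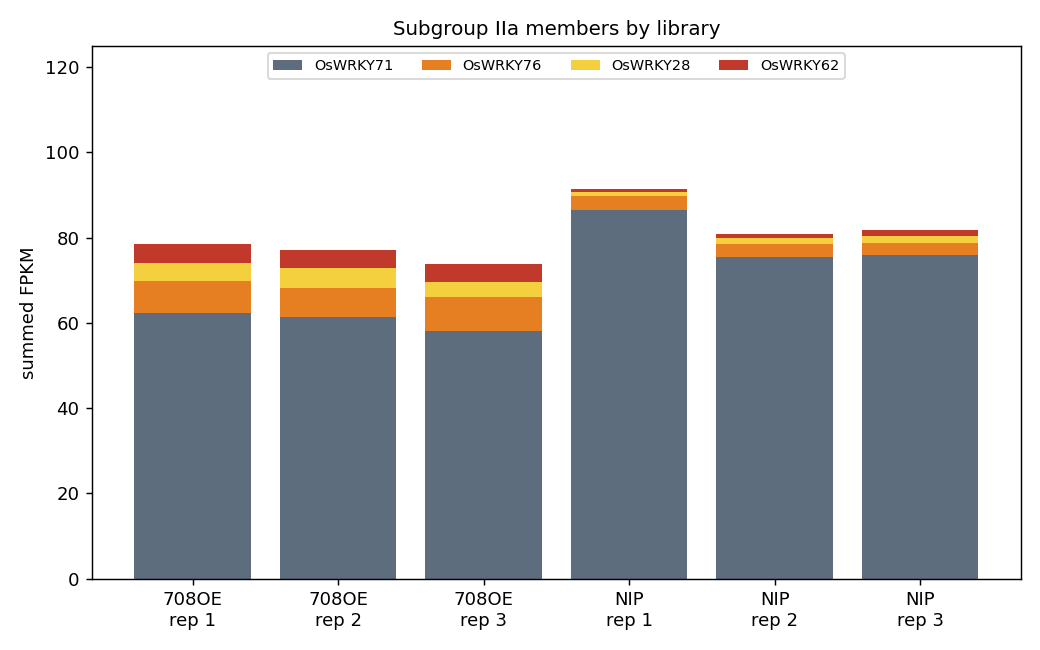
Summed FPKM of the 4 subgroup IIa members in each library, stacked by member, with the 3 overexpression libraries left of the 3 wild-type libraries. The OsWRKY71 segment holds 78.6 to 79.6% of the bar in 708OE_PEG and 92.7 to 94.5% in NIP_PEG.

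A further 3 members outside these subgroups also rose steeply, although what they do in rice seedlings is less well known. OsWRKY77 (LOC_Os01g40260) had the largest rise on this scale of all tested members, with 11.2, 10.3 and 10.1 FPKM in 708OE_PEG against 2.31, 2.79 and 2.77 FPKM in NIP_PEG. Its ratio of means was 4.01 and its log2FC 1.67 (SE 0.08, limma adjusted p = 7.6e-06). OsWRKY14 (LOC_Os01g53040) had 5.08, 6.09 and 5.33 FPKM in 708OE_PEG and 1.56, 2.18 and 2.04 FPKM in NIP_PEG (log2FC 1.15, limma adjusted p = 0.00021). Neither gene showed overlap between the genotypes. OsWRKY79 (LOC_Os03g21710) had 1.55, 1.52 and 1.68 FPKM in 708OE_PEG and 0.439, 0.216 and 0.403 FPKM in NIP_PEG, from 46, 46 and 68 reads against 17, 12 and 18. Its ratio of means, 4.49, was above that of OsWRKY77, while its log2FC was 0.94 (limma adjusted p = 0.00037), because adding 1 to each value compresses changes of scarce transcripts.

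OsWRKY79, OsWRKY50 and OsWRKY47 reached 1 FPKM in the overexpression libraries alone, and so entered the test through the genotype in which they were high. Their place among the rises is a description only. OsWRKY47, linked to drought tolerance when overexpressed, had 1.21, 1.69 and 1.45 FPKM in 708OE_PEG and 0.959, 0.947 and 0.831 FPKM in NIP_PEG (log2FC 0.35, limma adjusted p = 0.025). Its call was lost without 708OE_PEG replicate 2 (adjusted p = 0.084) or 3 (0.073) and without NIP_PEG replicate 3 (0.083), and after quantile normalization (0.072). No member reached 1 FPKM in the wild-type libraries alone. OsWRKY62 and OsWRKY19 met the filter of 3 libraries only with their overexpression libraries counted, and OsWRKY34 only with its wild-type libraries counted. Their places among the rises and falls are thus descriptions too. Inside the filter the lowest mean was 0.353 FPKM in NIP_PEG, for OsWRKY79, and outside it the highest single value was 0.536 FPKM, for OsWRKY26.

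**Figure D3:**
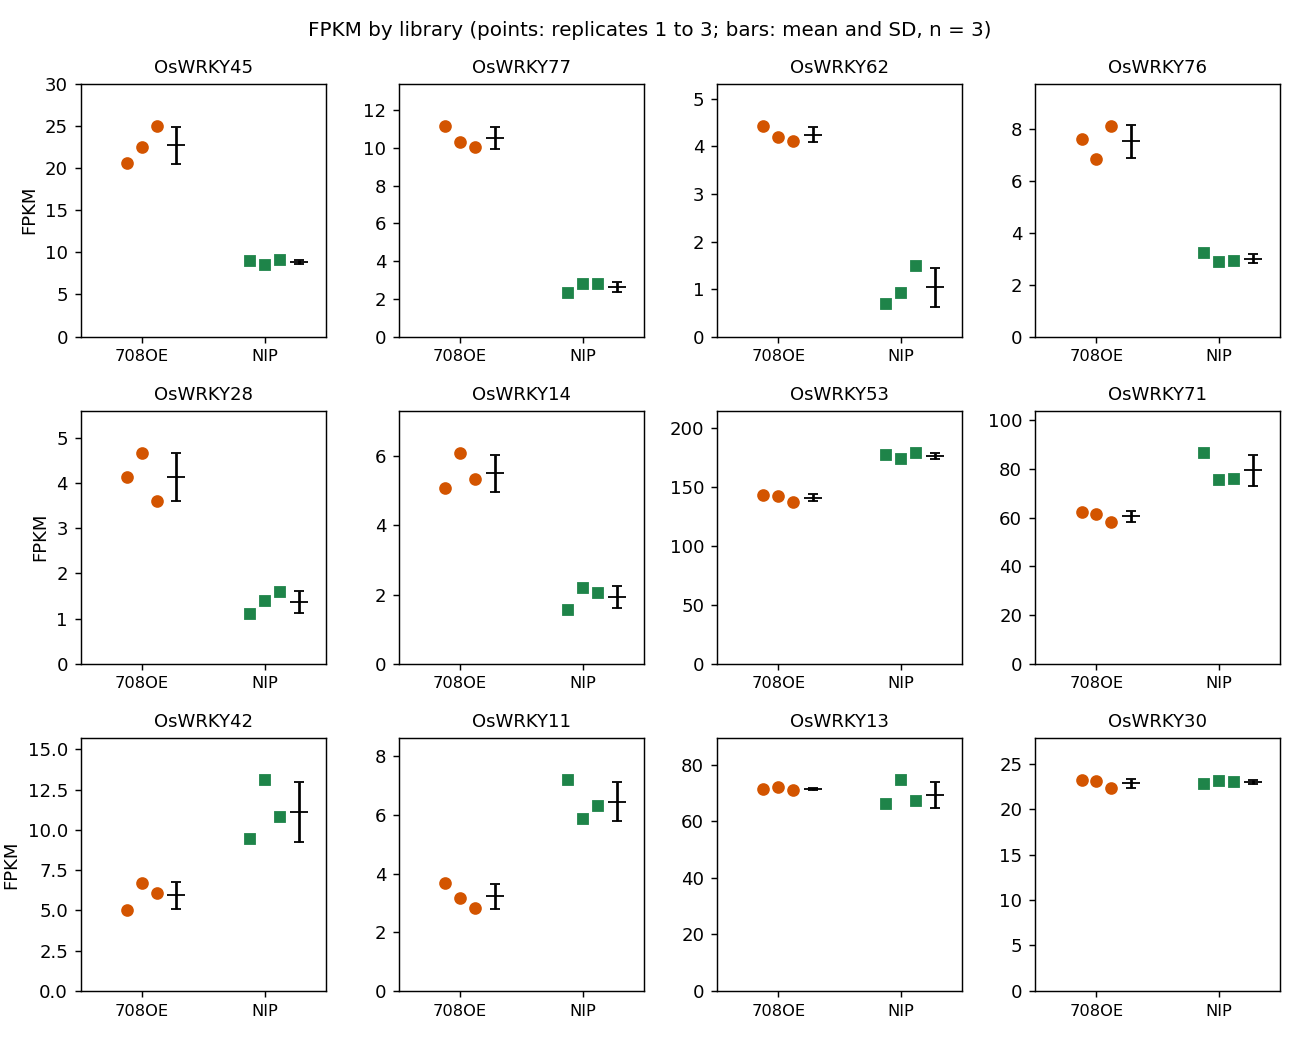
FPKM of 12 members in each library, 708OE_PEG left of NIP_PEG, with points for replicates 1 to 3 and a bar for the mean ± SD (n = 3); each axis starts at 0. The genotypes do not overlap in the panels of OsWRKY45, OsWRKY77, OsWRKY62, OsWRKY76, OsWRKY28, OsWRKY14, OsWRKY53, OsWRKY71, OsWRKY42 and OsWRKY11, and they overlap for OsWRKY13 and OsWRKY30.

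Group I, whose members include known targets of mitogen-activated protein kinases, contributed no rise. Of 7 members 6 were tested, of which 3 fell and 3 did not pass. Over all tested genes 14.3% rose and 20.0% fell. Of those at 5 FPKM or above, where the 3 that fell lie, 14.6% rose and 28.9% fell. With 6 members tested, the lack of a rise is near the share of all genes and no result about the group. OsWRKY53 (LOC_Os05g27730), a kinase target in defence that also acts in brassinosteroid signalling, was the most abundant member in every library. It had 143, 142 and 137 FPKM in 708OE_PEG, against 177, 173 and 179 FPKM in NIP_PEG (log2FC -0.32, SE 0.06, limma adjusted p = 0.005). The fall was small, with a ratio of means of 0.798, but the genotypes were separated by more than the spread within either. After scaling to recovered reads the log2FC of OsWRKY53 was -0.21 (limma adjusted p = 0.022). OsWRKY53 made up 19.6 to 19.8% of the summed FPKM of the 47 members in 708OE_PEG and 22.5 to 23.8% in NIP_PEG. Its close relative OsWRKY24, a repressor of abscisic acid and gibberellin signalling, had 7.50, 6.23 and 6.99 FPKM in 708OE_PEG and 8.62, 8.80 and 9.17 FPKM in NIP_PEG (log2FC -0.32, limma adjusted p = 0.015). That call was lost without 708OE_PEG replicate 2 (adjusted p = 0.06) or 3 (0.051), without NIP_PEG replicate 3 (0.06) and after scaling to recovered reads (0.063). OsWRKY78, known from stem elongation and seed development, had 11.9, 11.3 and 10.9 FPKM in 708OE_PEG and 15.8, 15.0 and 16.1 FPKM in NIP_PEG (log2FC -0.43, limma adjusted p = 0.0024).

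The remaining group I members did not pass. OsWRKY70, a regulator of the defence response to chewing insects, had 2.98, 2.91 and 3.73 FPKM in 708OE_PEG and 3.93, 4.16 and 3.73 FPKM in NIP_PEG (limma adjusted p = 0.081). Overexpression replicate 3 (3.725 FPKM) was just below the lowest wild-type library (3.727 FPKM). Without overexpression replicate 3 the limma adjusted p was 0.041. OsWRKY4 averaged 1.58 ± 0.145 FPKM in 708OE_PEG and 2.03 ± 0.167 FPKM in NIP_PEG (SD, n = 3 each; limma adjusted p = 0.068). OsWRKY30, which raises drought tolerance when overexpressed, had 23.2, 23.0 and 22.3 FPKM in 708OE_PEG and 22.8, 23.1 and 23.0 FPKM in NIP_PEG. Its log2FC was -0.01 (SE 0.06, limma adjusted p = 0.92), and its sign turned under other scalings.

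The largest falls were in members outside group I. OsWRKY11 (LOC_Os01g43650), linked to heat and drought tolerance, had 3.67, 3.17 and 2.83 FPKM in 708OE_PEG, against 7.18, 5.86 and 6.30 FPKM in NIP_PEG. Its mean in 708OE_PEG was 0.50 times that in NIP_PEG (log2FC -0.82, SE 0.10, limma adjusted p = 0.00084). OsWRKY42, a promoter of leaf senescence, had 5.02, 6.70 and 6.06 FPKM in 708OE_PEG, against 9.43, 13.1 and 10.8 FPKM in NIP_PEG (log2FC -0.80, SE 0.13, limma adjusted p = 0.0029). For both genes the highest overexpression library stayed below the lowest wild-type library. OsWRKY72, which represses jasmonate synthesis when overexpressed, had 8.86, 9.44 and 8.16 FPKM in 708OE_PEG and 15.8, 11.2 and 13.4 FPKM in NIP_PEG (log2FC -0.55, limma adjusted p = 0.0094). OsWRKY21, which acts in phosphate uptake, averaged 3.71 ± 0.245 FPKM in 708OE_PEG and 5.33 ± 0.476 FPKM in NIP_PEG (SD, n = 3 each; log2FC -0.43, limma adjusted p = 0.0064).

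OsWRKY1 was among the abundant members that fell, with 60.7, 60.7 and 54.4 FPKM in 708OE_PEG and 74.8, 72.8 and 75.5 FPKM in NIP_PEG (log2FC -0.34, limma adjusted p = 0.0067). OsWRKY16 averaged 5.12 ± 0.141 FPKM in 708OE_PEG and 7.29 ± 0.551 FPKM in NIP_PEG (SD, n = 3 each; log2FC -0.44, limma adjusted p = 0.0035). OsWRKY34 was near the lower limit of the test, with 0.842, 1.10 and 0.964 FPKM in 708OE_PEG and 1.62, 1.45 and 1.76 FPKM in NIP_PEG (log2FC -0.41, limma adjusted p = 0.011). These genes showed no overlap between the genotypes. OsWRKY8 had the smallest called fall (log2FC -0.26, limma adjusted p = 0.025), with 6.95 ± 0.287 FPKM in 708OE_PEG and 8.55 ± 0.586 FPKM in NIP_PEG (SD, n = 3 each). It lost its call without any 1 of the 708OE_PEG replicates (adjusted p = 0.055 to 0.095), without NIP_PEG replicate 3 (0.059), with 708OE_PEG replicates 1 and 2 as 1 sample (0.06), under median-ratio scaling (0.052), after scaling to recovered reads (0.0996) and with the gene length trend removed (0.075).

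Several abundant members did not pass. OsWRKY13 (LOC_Os01g54600), an activator of salicylic acid signalling and a suppressor of the jasmonate branch, had 71.4, 71.9 and 71.2 FPKM in 708OE_PEG and 66.0, 74.5 and 67.3 FPKM in NIP_PEG (log2FC 0.05, SE 0.07, limma adjusted p = 0.61). The 3 overexpression values fell inside the wild-type range. The subgroup IId members OsWRKY68, known from blight resistance, and OsWRKY51, a partner of OsWRKY71 in gibberellin signalling, shared a low wild-type library. OsWRKY68 had 77.5, 77.6 and 73.1 FPKM in 708OE_PEG and 63.7, 81.0 and 80.4 FPKM in NIP_PEG. OsWRKY51 had 58.2, 58.8 and 51.8 FPKM in 708OE_PEG and 42.8, 60.5 and 60.2 FPKM in NIP_PEG. NIP_PEG replicate 1 was the lowest of all 6 libraries for both genes, and neither passed (limma adjusted p = 0.84 for OsWRKY68 and 0.75 for OsWRKY51). OsWRKY67 (limma adjusted p = 0.38), OsWRKY7 (0.83) and OsWRKY9 (0.55) likewise did not pass. OsWRKY5, a positive regulator of leaf senescence, just missed the threshold (log2FC 0.20, limma adjusted p = 0.055) although 708OE_PEG lay wholly above NIP_PEG, and it passed under median-ratio scaling (0.031), after scaling to recovered reads (0.019), with voom on recovered reads (0.04) and with the gene length trend removed (0.014). OsWRKY23 did not pass (limma adjusted p = 0.15), and without NIP_PEG replicate 2 it did (log2FC -0.48, adjusted p = 0.02). OsWRKY3, OsWRKY10 and OsWRKY39 also did not pass.

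By their medians, members that rose were scarcer in the wild type than members that fell, although the levels overlapped: OsWRKY74 rose with a wild-type mean of 10.6 FPKM, and OsWRKY34 fell with one of 1.61 FPKM. Members called higher had a median of 4.19 FPKM in 708OE_PEG and 1.67 FPKM in NIP_PEG, and members called lower had a median of 6.93 FPKM in 708OE_PEG and 9.99 FPKM in NIP_PEG. Over all genes the medians in NIP_PEG ran the same way, at 4.60 FPKM for genes called higher and 12.6 FPKM for genes called lower. The same values sorted genes into rises and falls, so all these medians are descriptions. Of 18 tested members with a mean below 5 FPKM over all libraries 9 rose and 3 fell, where 13.9% of all genes in that range rose and 9.44% fell. These 9 rises include OsWRKY79, OsWRKY50 and OsWRKY47, which passed the filter through 708OE_PEG alone. They also include OsWRKY62 and OsWRKY19, which met it only with their overexpression libraries counted. The 3 falls include OsWRKY34, which met it only with its wild-type libraries counted, so these counts are descriptions. Of 23 members at 5 FPKM or above 5 rose and 9 fell, where 14.6% of all genes rose and 28.9% fell. The summed level of the 47 members was 698 to 725 FPKM in 708OE_PEG and 744 to 774 FPKM in NIP_PEG, so as deposited the total was lower in every overexpression library. After scaling to recovered reads the sums were 737 to 748 FPKM in 708OE_PEG and 711 to 751 FPKM in NIP_PEG and overlapped.

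**Figure D4:**
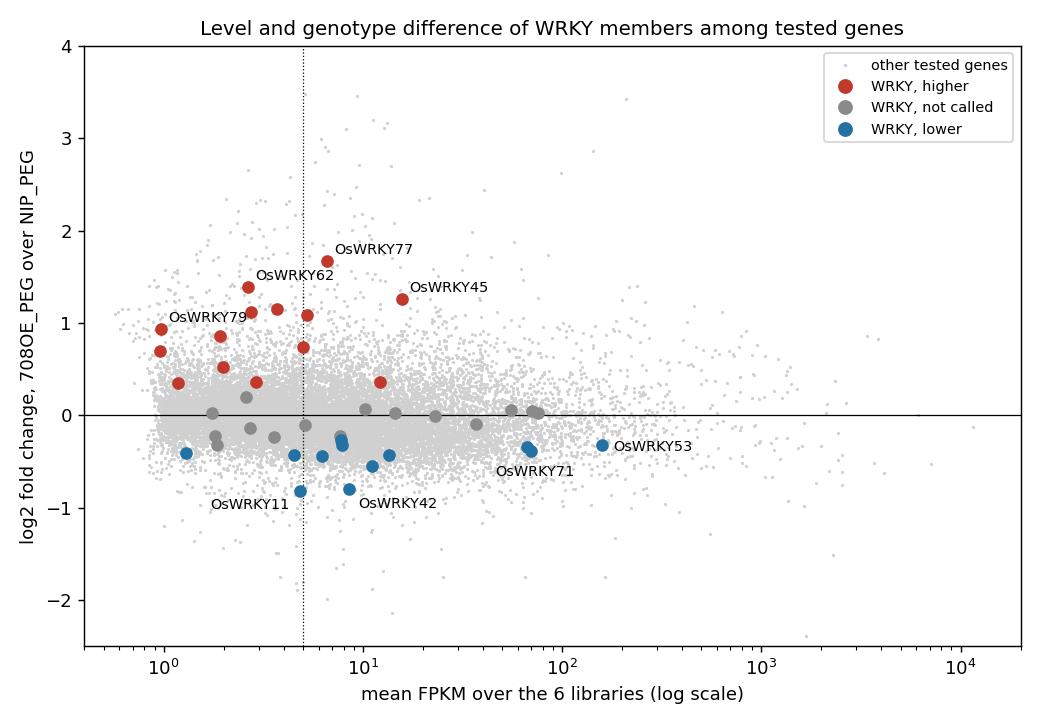
Mean FPKM over the 6 libraries (log axis) against the log2 fold change of 708OE_PEG over NIP_PEG, with WRKY members in colour over the other tested genes in grey; the dotted line marks 5 FPKM and 11 genes lie outside the axes. OsWRKY45 at 1.26 and OsWRKY77 at 1.67 lie to the right of the other rises of similar size, and OsWRKY53 at -0.32 is the most abundant member.

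The 6 untested members were OsWRKY26, OsWRKY29, OsWRKY32, OsWRKY35, OsWRKY64 and OsWRKY66, with 0.536 FPKM the highest value in any library. In the fit without a filter OsWRKY32 alone of them passed (log2FC 0.23, limma adjusted p = 0.041), with 0.323, 0.498 and 0.419 FPKM in 708OE_PEG and 0.190, 0.159 and 0.256 FPKM in NIP_PEG. In the authors' deposited table all 41 tested members had the same sign of fold change as here. With the authors' p-values adjusted by the Benjamini-Hochberg method over all genes with any read, 13 tested members were higher and 14 lower, where 17.1% and 25.9% of all tested genes were. Of the 26 members called here, 25 were called in the same direction from the authors' deposited table. The exception was OsWRKY104 (adjusted p = 0.0530 from the authors' deposited table), and OsWRKY23 and OsWRKY4 were called lower from that table alone (adjusted p = 0.0445 and 0.0104).

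WRKY loci outside the list were mostly too scarce to test. Of 31 further loci of the family 11 were tested, of which 0 rose, 5 fell and 6 did not pass (limma, adjusted p below 0.05), where 14.3% of all tested genes rose and 20.0% fell. Without a filter on low values 3 rose. Those that fell by at least 0.5 on the log2 scale were LOC_Os12g32250 (-0.72), LOC_Os11g02480 (-0.71) and LOC_Os12g02420 (-0.53), of which the last 2 are in the copied block of chromosomes 11 and 12. Whether the 2 sets of WRKY genes differ was not tested. Among 14 genes of the signalling pathways that act on WRKY factors 1 rose, 4 fell and 9 did not pass, which is near the shares of all tested genes (14.3% higher and 20.0% lower) and no result about the list. OsMKK4, a kinase upstream of OsMPK3, OsMPK6 and OsWRKY53, averaged 75.1 ± 4.40 FPKM in 708OE_PEG and 110.4 ± 3.24 FPKM in NIP_PEG (SD, n = 3 each; log2FC -0.55, limma adjusted p = 0.00084). OsMPK3 (log2FC -0.29), OsMPK6 (-0.38) and the chitin receptor kinase OsCERK1 (-0.23) also fell, and OsMKK10-2, a kinase known to act through OsMPK6 on OsWRKY45, rose (0.46, limma adjusted p = 0.019). The rise of OsMKK10-2 was lost without 708OE_PEG replicate 1 or 3. OsNPR1, the salicylic acid co-activator, had a log2FC of -0.0047 (limma adjusted p = 0.98).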

How the data were processed

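Stranded libraries were made from polyadenylated RNA of whole seedlings, per the labels' protocols. The table deposited by the authors holds FPKM values for 6 libraries, per the file headers, beside the authors' own log2 fold change and p-value of each gene. The submitters' processing notes name HISAT2, SAMtools, featureCounts and DESeq2, beside FastQC, cutadapt and deepTools, with no role or version. The sources used here state no genome build, annotation, strand setting or adjustment of the p-values.

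Libraries were grouped by genotype. Wild-type columns are headed NIP followed by a digit that no label explains, and were taken as the NIP_PEG group. Nothing in the labels says that repeats came from separate plants, so p-values reflect spread among libraries that may be technical. Lanes are labelled for the wild type alone, so lane and genotype cannot be told apart.

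FPKM values were whole multiples of 1 read, so that 31068 of 31263 expressed genes came out in whole reads (99.4%, within 0.02 of a read), including all 47 members, and implied library sizes and gene lengths. Of 5 members whose name is a symbol or synonym in the RefSeq table of assembly ASM3414082v1, all lay on the same chromosome. For OsWRKY24, OsWRKY51, OsWRKY62 and OsWRKY71 the implied length was 1.00 to 1.05 times the gene's span with introns, and for OsWRKY76 it was 1.27 times. FPKM is thus per kilobase of whole gene rather than of transcript where this could be compared, which lowers the level of long genes with introns (implied lengths of members run from 962 to 8261 bases). Other member names rest on background knowledge alone.

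limma 3.58.1 (R 4.3.3) was fitted on log2(FPKM + 1) with variances that follow expression, two-sided, over 18569 genes that reached 1 FPKM in 3 or more libraries, with Benjamini-Hochberg adjustment at 0.05. This scale understates changes of scarce transcripts. Fits and read recovery were tested on simulated data. Members, lists and subgroups were chosen with earlier results of these data known. Members named with values were the 12 largest rises, the 12 largest falls and a fixed set of well-studied factors, plus those with an adjusted p of 0.02 to 0.1 and, by name, those not tested; genes of other lists were named past a log2 change of 0.5, and OsWRKY74 and a few further genes were named after their values were seen. Alternatives changed the pseudocount, the filter, the scaling, the length trend, the libraries and the test. No sequences were printed, since none were given here.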

Additional observations from a re-analysis of the deposited data

How the results depend on the processing

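Of the 26 called members 22 kept direction and call under each of the 17 alternatives that tested them, and 0 of the 26 changed sign. The calls of OsWRKY15, OsWRKY24, OsWRKY47 and OsWRKY8 were lost under at least 1, and OsWRKY15 was lost with a pseudocount of 5 (adjusted p = 0.063), without a filter (0.12), after quantile normalization (0.074), with the length trend removed (0.099) and without 1 library in 5 of 6 fits. Of the 15 members not called, OsWRKY4, OsWRKY5, OsWRKY23 and OsWRKY70 passed under at least 1. Leaving out 1 library gave 12 to 14 members higher and 10 to 13 lower. When a mean of 5 FPKM or more was required, 23 members were tested and 5 were higher, since fewer genes were tested. With voom on recovered reads 15 were higher and 13 lower. Scaling the libraries by median ratios gave 3193 genes higher and 2747 lower, and removing the length trend gave 2781 and 2694. The rise of OsWRKY79 (log2 scale) was 1.93 with a pseudocount of 0.1, 0.30 with 5 and 2.25 with voom.

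Among the other WRKY loci, 3 were higher without a filter on low values. The lower ones numbered 3 under median-ratio scaling, after scaling to recovered reads and with 708OE_PEG replicates 1 and 2 as 1 sample. Leaving out 1 library gave 0 to 1 higher, the 1 being without NIP_PEG replicate 2, and 3 to 5 lower, with 3 without 708OE_PEG replicate 2 or 3. Of the signalling genes 2 were higher with the length trend removed, and leaving out 1 library gave 0 to 1 higher.

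Signs turned for 8 of the members not called. OsWRKY13 was -0.0059 with the length trend removed. OsWRKY30 was 0.045 under median-ratio scaling, 0.050 after quantile normalization, 0.095 after scaling to recovered reads and 0.066 with the length trend removed. OsWRKY67 was 0.014 after scaling to recovered reads. With the length trend removed OsWRKY7 was -0.043 and OsWRKY68 was -0.052. OsWRKY39 was -0.037 after quantile normalization, -0.0068 with voom and -0.016 with 708OE_PEG replicates 1 and 2 as 1 sample. Over fits without 1 library the ranges were -0.020 to 0.0080 for OsWRKY30, -0.046 to 0.12 for OsWRKY39, -0.10 to 0.14 for OsWRKY51, -0.084 to 0.087 for OsWRKY68, -0.039 to 0.092 for OsWRKY7 and -0.0056 to 0.12 for OsWRKY9. The cause was not tested.

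With the replicate number as a block 14 members were higher and 12 lower, and over all genes 2493 and 3126. Deviations of libraries with the same number correlated at -0.0050, -0.0022 and -0.045 across 18569 genes, and those with different numbers at -0.023 to 0.040. No pairing by number was thus seen. With 3 libraries per genotype these values cannot show whether repeats of the same number were handled together. Depth limits the scarce members most, with 12 reads in the thinnest library of a tested member and 1 read in a 1 kb gene worth 0.0402 to 0.0752 FPKM.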
